A study of Mus musculus with 6 samples.

Results

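Transcript levels of 10 genes of platelet-derived growth factor (PDGF), hepatocyte growth factor (HGF) and MET signalling were examined in tumour cells grown in mice with or without bone marrow-derived mesenchymal stem cells (BMSCs). The genes were taken by symbol: the PDGF ligands Pdgfa, Pdgfb, Pdgfc and Pdgfd, the PDGF receptors Pdgfra and Pdgfrb, the ligand Hgf with its receptor Met, and the ligand Gas6 with its receptor Axl. Of these 10 genes, 9 had a row among the 18182 genes of the files, and Pdgfd was not analysed here. Cells of the mouse lung tumour line Lewis lung carcinoma (LLC) carried a red fluorescent protein (RFP) and were injected under the skin of wild type C57BL/6 mice. In 3 libraries, called LLC alone, the agent was LLC-RFP alone, and in the other 3, called LLC with BMSCs, LLC-RFP cells and BMSCs were injected together. RFP-positive cells were sorted from the primary tumours and their mRNA was sequenced. Both groups therefore share the tumour line, the RFP label, the host strain and the sort, and the sort on RFP is the only gate that separated LLC cells from host cells and from BMSCs. For allograft growth the study's methods name female mice of 6 weeks, and for the RFP tumours they repeat no age. The number of animals behind a library was not given in the sources used here, so p-values measure the spread between these libraries, which may be technical.

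PDGF ligands are dimers of A, B, C or D chains that bring together the receptor tyrosine kinases PDGFR-alpha and PDGFR-beta, and are best known for driving the growth and recruitment of fibroblasts, pericytes and smooth muscle cells. HGF is made mainly by mesenchymal cells as an inactive precursor, is cut by serine proteases and then activates MET, a receptor tyrosine kinase that drives scattering, migration and survival of epithelial and carcinoma cells. GAS6 bridges phosphatidylserine on cell surfaces to the TAM receptors TYRO3, AXL and MERTK, and AXL is linked to invasion and drug resistance in carcinomas.

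Met, both PDGF receptor genes and the rarely expressed ligands Gas6 and Pdgfb were higher in LLC with BMSCs, while of the more abundant PDGF ligands Pdgfa was lower and Pdgfc was not called. Met rose by 2.11-fold, Pdgfra by 1.39-fold and Pdgfrb by 1.33-fold. Gas6 rose by 4.20-fold and Pdgfb by 3.00-fold, both from under 0.2 FPKM (fragments scaled by library total and transcript length). Pdgfb was tested only through LLC with BMSCs, since 0 of 3 LLC alone libraries reached the count minimum. Gas6 reached it in 2 of 3 LLC alone libraries and also depended on LLC with BMSCs to be tested. Pdgfa fell to 0.702 of its level in LLC alone, and this call was lost once a trend along transcript length, described below, was removed. Axl, the most abundant of these genes, was 1.13-fold higher at an adjusted p of 0.0488 from edgeR's quasi-likelihood test, and this call did not hold in most of the other ways of processing tried.

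Counted by gene, 6 were called higher (Pdgfb, Pdgfra, Pdgfrb, Met, Gas6 and Axl) and 1 lower (Pdgfa) at an adjusted p under 0.05, Pdgfc passed in neither direction, Hgf was below the filter on low counts and Pdgfd was not analysed. Over all 13353 genes tested, 31.5% were called higher and 31.3% lower, and for 37.0% the lowest FPKM of LLC with BMSCs lay above the highest of LLC alone. The same 6 genes called higher were also without overlap in FPKM. Pdgfb passed the filter only through the libraries of LLC with BMSCs, since 0 of 3 LLC alone libraries reached the minimum of 0.226 CPM (counts scaled by library total), and Gas6 reached it in 2 of 3 of them, so these counts were not read against the shares over all genes. Of all tested genes, 8.07% had a log2 fold change at or above that of Met, 21.2% at or above that of Pdgfra, 24.1% at or above that of Pdgfrb and 38.1% at or above that of Axl. For Pdgfa, 18.7% of tested genes were at or below its log2 fold change.

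**Figure D1:**
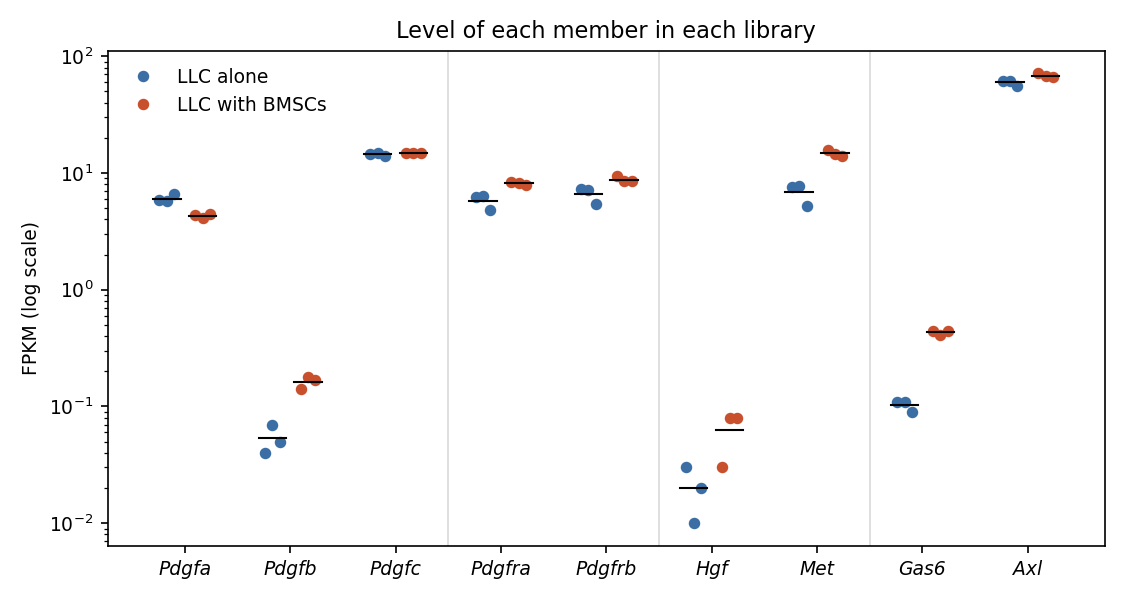
FPKM (log axis) of the 9 genes in each of the 6 libraries, in the order PDGF ligands, PDGF receptors, Hgf and Met, Gas6 and Axl, with points for libraries and black lines for group means. Met sits between 5.18 and 7.79 FPKM in LLC alone and between 14.01 and 15.59 in LLC with BMSCs, Pdgfa is lower in LLC with BMSCs, and Pdgfc and Hgf are the genes whose groups overlap.

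The libraries held between 33476347 and 46189113 estimated fragments on genes, so that 3 counts correspond to 0.0650 to 0.0896 CPM. LLC alone replicate 3 stood apart from the other libraries of its group, by a median chi-square of 13.4 to 13.9 times sampling noise against 1.97 between LLC alone replicates 1 and 2. LLC with BMSCs replicates 2 and 3 were the closest pair, at 1.70 times sampling noise. LLC with BMSCs replicate 1 stood further off, at 5.07 and 4.97 times sampling noise from replicates 2 and 3. LLC alone replicate 3 also deviated along transcript length. Set against the mean over all libraries, which takes in both groups, its median deviation on the log2 scale was 0.31 in the shortest of 5 length classes. In the longest class it was -0.37. The other libraries were not examined in this way. The median log2 fold change of all tested genes also ran along length, from -0.28 in the shortest class to 0.26 in the longest. How much of that trend belongs to LLC alone replicate 3 was not tested. Met, Pdgfra, Pdgfrb and Axl belong to the longest class (4850 bases or more) and Pdgfa, at 1019 bases, to the shortest, so values with the length trend of each library removed, and without LLC alone replicate 3, are given beside these genes. Of the tested genes in the longest class, 45.6% were called higher and 14.4% lower, and in the shortest class 14.5% and 46.5%.

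Markers of other cells were also compared, because the RFP gate could let other cells pass. Of 14 mesenchymal stromal genes, 10 were tested and 10 were higher, and their sum went from 316 to 359 CPM in LLC alone to 765 to 804 CPM in LLC with BMSCs. Most of this sum was Col3a1, a fibrillar collagen chain, with 8030 to 10962 counts in LLC alone and 23863 to 24924 in LLC with BMSCs. Col1a1 went from 2 to 4 counts to 477 to 586, and Dcn from 8 counts in each library to 492 to 526. The surface markers Vcam1, Ly6a and Nt5e had log2 fold changes of 2.67, 2.83 and 1.96, while Thy1 and Fap were at 0 in every LLC alone library and at no more than 2 counts in LLC with BMSCs. Of 13 macrophage genes, 8 were tested, 6 were higher and 1 was lower, with a sum of 24.2 to 29.2 CPM against 36.2 to 38.5 CPM. The macrophage marker Adgre1 was at 0 in LLC alone and at 60 to 79 counts in LLC with BMSCs. Cd68, the macrophage gene that was lower, went from 283, 215 and 337 counts to 181, 141 and 157. Cd14, the largest part of the macrophage sum, had 480 to 789 counts against 667 to 781 and was not called. The complement genes C1qa and C1qc, which tissue macrophages express strongly, did not exceed 3 counts in any library. Of the epithelial markers, Krt8 was at 95.3 FPKM in LLC alone, and 110 in LLC with BMSCs, and Krt18 at 0.0833 and 0.653 FPKM. Epcam and Cdh1, which define most epithelial cells, were at no more than 5 counts in any library. Several marker genes called higher, among them Col1a1, Itgam and Adgre1, had at most 5 counts in any LLC alone library. They entered the test only through LLC with BMSCs. The marker tallies were therefore not read against the shares over all genes, 31.5% higher and 31.3% lower. In sorted bulk cells, a change in the number of cells of a type and a change in RNA per cell cannot be told apart.

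Among the PDGF ligands, Pdgfa, which encodes the A chain and binds PDGFR-alpha, was the gene that fell. It lies at chr5:138976014-138997370 on the minus strand (GRCm38, GENCODE M21), where a long noncoding gene, 6330403L08Rik, overlaps it on the opposite strand. Its level was 5.82, 5.74 and 6.56 FPKM in the LLC alone libraries (255, 182 and 287 counts) and 4.35, 4.10 and 4.49 FPKM in the LLC with BMSCs libraries (184, 171 and 186 counts). Every LLC with BMSCs library was below every LLC alone library, and LLC alone replicate 3 was the highest. Group means were 6.04 ± 0.452 and 4.31 ± 0.198 FPKM (SD, n = 3 each; exact permutation test, two-sided p = 0.1, which 3 against 3 libraries cannot go below). Its log2 fold change was -0.51 with a standard error of 0.099 (edgeR's quasi-likelihood test, adjusted p = 0.00266). It was -0.44 without LLC alone replicate 3 (adjusted p = 0.00399 by edgeR) and -0.20 with the length trend removed, where the call was lost (adjusted p = 0.0679 by edgeR). Pdgfa has a promoter rich in G and C, with 73.3% GC and 37 CpG dinucleotides in the 300-base window of its upstream start site, against medians of 52.7% and 7 over 32851 mouse windows (RefSeq, GRCm38.p6). The 157 bases directly before the first exon at that start site, chr5:138995038-138995194 on the minus strand, are printed because they contrast with the promoter of its receptor gene below. They lie inside the bounds of the gene given above, in an intron of longer annotated transcripts. There are no capitals, which would mark GC boxes (GGGCGG on either strand), since the 2 GC boxes of the window lie further downstream.
Pdgfa start site: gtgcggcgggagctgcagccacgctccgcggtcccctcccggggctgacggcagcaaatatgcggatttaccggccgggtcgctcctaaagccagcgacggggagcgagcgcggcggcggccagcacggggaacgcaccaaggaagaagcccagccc

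Pdgfc, the C chain, which is secreted with a domain that must be cut off before it can bind a receptor, was the most abundant PDGF ligand (chr3:81036416-81214040, plus strand). Its level was 14.52, 14.77 and 14.11 FPKM in LLC alone against 14.71, 14.80 and 14.69 FPKM in LLC with BMSCs. The groups overlapped (14.5 ± 0.333 and 14.7 ± 0.0586 FPKM, SD, n = 3 each; exact permutation test, two-sided p = 0.3). The log2 fold change of 0.01 had a 95% interval from -0.11 to 0.12 (adjusted p = 0.926 by edgeR), so that changes between 0.925-fold and 1.09-fold lie inside the interval.

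Pdgfb, the B chain, which binds both PDGF receptors and is typically made by endothelial cells and platelets, was near the limit of detection (chr15:79995874-80014977, minus strand). It had 6, 7 and 6 counts in LLC alone and 18, 23 and 21 counts in LLC with BMSCs, or 0.04, 0.07 and 0.05 FPKM against 0.14, 0.18 and 0.17 FPKM. All LLC with BMSCs libraries were above all LLC alone libraries, at a level that remained under 0.2 FPKM. The summed counts gave 0.151 and 0.468 CPM, a ratio of 3.10 with a 95% counting interval from 1.83 to 5.49 (exact Clopper-Pearson, counting error only). In the fit across all genes, which Pdgfb entered only through its LLC with BMSCs libraries, its log2 fold change was 1.59 with a standard error of 0.28 (adjusted p = 0.00172 by edgeR) and 1.57 with the length trend removed. Of 7 platelet and megakaryocyte markers, 4 were tested, 3 were higher and 1 was lower, with a sum of 5.85 to 6.20 CPM in LLC alone and 7.30 to 7.75 CPM in LLC with BMSCs. Among them the platelet chemokine Pf4 went from 1, 4 and 5 counts to 28, 33 and 22, and was tested only through LLC with BMSCs. Gp1ba, the platelet gene that was lower, went from 80, 48 and 60 counts to 39, 40 and 30. Of 9 endothelial markers, 3 were tested and 1 was lower, with sums of 2.98 to 3.93 and 2.47 to 3.18 CPM. The largest part of this sum was Esam, the gene that was lower, with 89, 88 and 104 counts against 61, 45 and 62. Below the filter, Cdh5 went from 2, 1 and 1 counts to 10, 8 and 14. Erg went from 0 to 3, 4 and 3, and Emcn from 0 to 2, 1 and 1. Kdr, Tek and Cldn5, also below the filter, overlapped between groups, and Pecam1 and Vwf were not called. The part of these cells in the Pdgfb counts was not tested.

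FPKM is per length, so the ligands were set side by side, but it does not remove the length trend described above. Pdgfa made up 29.4 ± 2.01% of the summed FPKM of Pdgfa, Pdgfb and Pdgfc in LLC alone and 22.4 ± 0.876% in LLC with BMSCs, and Pdgfc 70.4 ± 1.99% and 76.7 ± 0.829% (SD, n = 3 each; exact permutation test, two-sided, each p = 0.1). Pdgfb held 0.259% and 0.850%. The sum itself was 20.6 ± 0.171 FPKM in LLC alone, and 19.2 ± 0.135 in LLC with BMSCs, with no overlap between groups. With the length trend removed, the log2 fold change was -0.20 for Pdgfa and -0.04 for Pdgfc. The shares and the sum were not recomputed without that trend, so its part in their differences was not tested.

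Both PDGF receptor genes were expressed at similar levels and were higher in LLC with BMSCs. Pdgfra, the receptor for A, B and C chains and a common marker of fibroblasts, lies at chr5:75152292-75198215 on the plus strand. Its level was 6.17, 6.41 and 4.77 FPKM in the LLC alone libraries, where replicate 3 was the lowest, and 8.32, 8.24 and 7.82 FPKM in the LLC with BMSCs libraries. The groups did not overlap (5.78 ± 0.886 and 8.13 ± 0.269 FPKM, SD, n = 3 each; exact permutation test, two-sided p = 0.1). The log2 fold change was 0.47 with a standard error of 0.11 (adjusted p = 0.00629 by edgeR), and it kept its direction and its side of the threshold in 17 of 17 alternatives. It was smaller, 0.35, without LLC alone replicate 3 and 0.23 with the length trend removed (adjusted p = 0.00136 by edgeR). In contrast to Pdgfa, its promoter window had 51.0% GC, 5 CpG dinucleotides and no GC box. The 250 bases before its RefSeq start, chr5:75152001-75152250 on the plus strand, are shown for comparison with Pdgfa above. That start lies upstream of the GENCODE start of the gene given above.
Pdgfra upstream: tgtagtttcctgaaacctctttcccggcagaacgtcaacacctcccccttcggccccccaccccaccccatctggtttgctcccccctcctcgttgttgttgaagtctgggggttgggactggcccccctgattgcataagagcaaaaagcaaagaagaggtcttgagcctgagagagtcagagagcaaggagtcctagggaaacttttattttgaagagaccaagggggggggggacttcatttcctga

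Pdgfrb, the receptor for B and D chains and a standard marker of pericytes, had 7.22, 7.08 and 5.46 FPKM in LLC alone against 9.34, 8.45 and 8.47 FPKM in LLC with BMSCs. Replicate 3 was again the lowest of LLC alone, and the groups did not overlap (6.59 ± 0.978 and 8.75 ± 0.508 FPKM, SD, n = 3 each; exact permutation test, two-sided p = 0.1). The log2 fold change was 0.41 with a standard error of 0.11 (adjusted p = 0.0121 by edgeR). It was 0.29 without LLC alone replicate 3 and 0.20 with the length trend removed (adjusted p = 0.00882 by edgeR), and the call was lost without LLC with BMSCs replicate 1 (log2 fold change 0.36, adjusted p = 0.0511 by edgeR). The ratio of Pdgfra to Pdgfrb FPKM was 0.878 ± 0.0257 in LLC alone and 0.930 ± 0.0425 in LLC with BMSCs, with overlapping groups (exact permutation test, two-sided p = 0.2). The sum of both receptors was 12.4 ± 1.85 FPKM in LLC alone and 16.9 ± 0.704 in LLC with BMSCs, and the ratio of ligand to receptor FPKM was 1.69 ± 0.290 and 1.14 ± 0.0504 (SD, n = 3 each; exact permutation test, two-sided, each p = 0.1). By library, that ratio was 1.52, 1.53 and 2.03 in LLC alone replicates 1, 2 and 3. The ligand genes are shorter than the receptor genes. The ratio was not recomputed with the length trend removed, so the part of that trend in it was not tested.

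Since BMSCs and pericytes express PDGF receptors, their markers were read beside these genes. The mesenchymal stromal sum given above was higher in each LLC with BMSCs library. Of 9 pericyte genes, 6 were tested, 3 were higher and 2 lower, and their sum was lower in each LLC with BMSCs library, at 12.2 to 13.6 CPM in LLC alone and 8.45 to 11.02 CPM in LLC with BMSCs. Those that rose were Acta2, Notch3 and Rgs5, with log2 fold changes of 4.16, 3.26 and 1.52, and those that fell were Cspg4 and Des, with -2.59 and -0.73. Acta2 and Notch3 had at most 6 counts in any LLC alone library and were tested only through LLC with BMSCs. The channel gene Kcnj8 was at no more than 2 counts and Higd1b at no more than 1 in any library. In LLC alone, where the BMSC agent was absent, Pdgfra and Pdgfrb had 1421 to 1888 and 1280 to 1798 counts. Stromal genes there ranged from 0 counts of Thy1, Fap and Cxcl12 and 8 of Dcn in each library to 3369 to 4636 of Eng and 8030 to 10962 of Col3a1. The part of stromal cells in the higher receptor levels was not tested.

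Met was the receptor that differed most. It encodes the only known high-affinity receptor for HGF and lies at chr6:17463800-17573980 on the plus strand, with no overlapping gene in the annotation. Its level was 7.62, 7.79 and 5.18 FPKM in LLC alone (2324, 1722 and 1581 counts) and 15.59, 14.47 and 14.01 FPKM in LLC with BMSCs (4582, 4208 and 4054 counts). The lowest LLC with BMSCs library was well above the highest LLC alone library, and LLC alone replicate 3 was again the lowest. Group means were 6.86 ± 1.46 and 14.7 ± 0.813 FPKM (SD, n = 3 each; exact permutation test, two-sided p = 0.1). Across all libraries, the log2 fold change of Met was 1.08 with a standard error of 0.15 (adjusted p = 0.000453 by edgeR). It was 0.92 without LLC alone replicate 3 (adjusted p = 2.86e-06 by edgeR) and 0.85 with the length trend removed (adjusted p = 8.31e-06 by edgeR), and passed the threshold in 17 of 17 alternatives.

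The files divide Met between the RefSeq transcript NM_008591 and a transcript that the authors' pipeline assembled. NM_008591 had 6.26, 6.28 and 3.73 FPKM in the LLC alone libraries and 14.00, 12.92 and 12.49 FPKM in LLC with BMSCs, and carried the rise of the gene. The assembled transcript had 1.36, 1.51 and 1.45 FPKM against 1.59, 1.55 and 1.52 FPKM, which do not overlap but differ little. Its share of the gene went from 21.7 ± 5.47% to 10.6 ± 0.343% (SD, n = 3 each; exact permutation test, two-sided p = 0.1). Both transcripts are of nearly equal length, 6652 and 6730 bases, and the division of shared reads between them is an estimate.

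**Figure D2:**
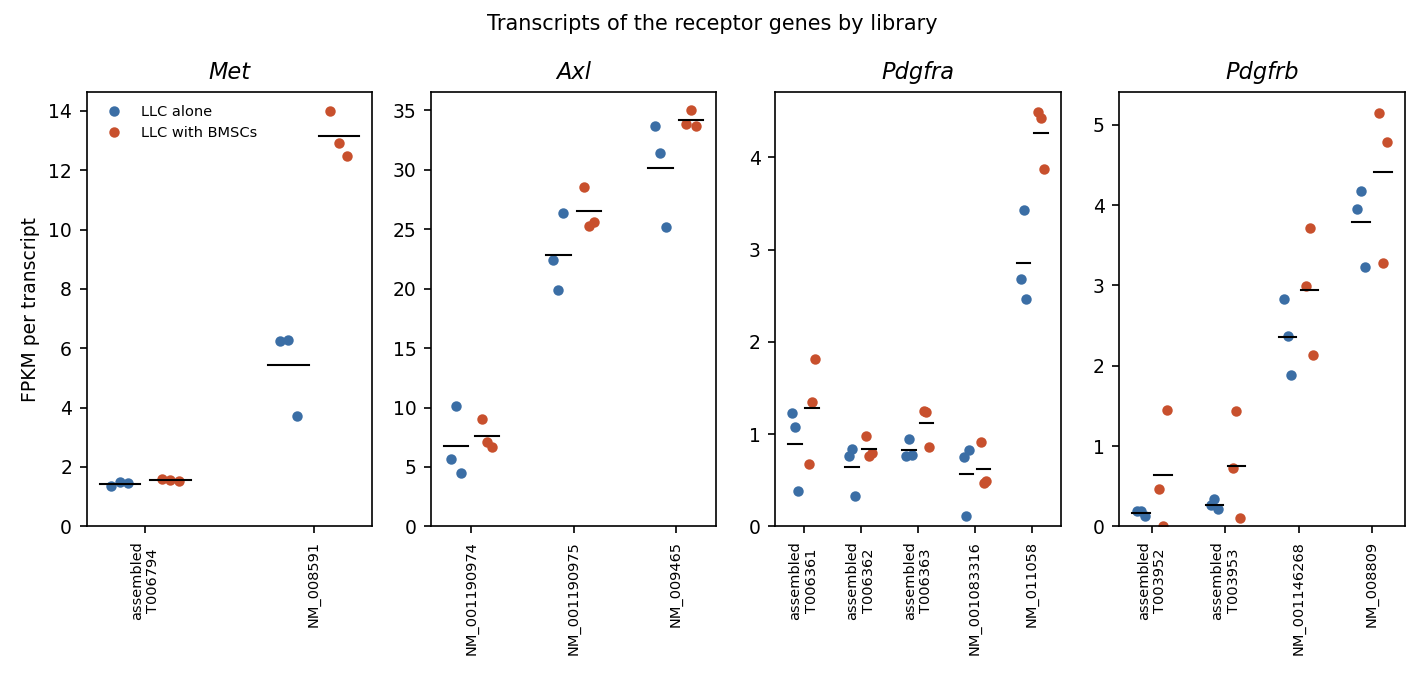
FPKM of each transcript of Met, Axl, Pdgfra and Pdgfrb in the 6 libraries, with points for libraries and black lines for group means, and each panel on its own linear axis from 0. For Met the RefSeq transcript NM_008591 goes from 5.42 to 13.1 FPKM on average while the assembled transcript stays near 1.5, and for Pdgfra and Pdgfrb the transcripts scatter between libraries of the same group.

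The Met promoter was the most GC-rich of the 8 genes whose promoters were examined, at 75.7% GC with 34 CpG dinucleotides in its 300-base window. Of all mouse windows, 96.9% were at or below that GC content. Its window held 3 GC boxes, and 35.7% of all windows hold at least 1. It also held 1 match to TGANTCA, the AP-1 motif, which 7.81% of all windows contain. The 93 bases before the annotated start (chr6:17463707-17463799, plus strand, RefSeq, GRCm38.p6) are printed with the GC box in capitals.
Met upstream: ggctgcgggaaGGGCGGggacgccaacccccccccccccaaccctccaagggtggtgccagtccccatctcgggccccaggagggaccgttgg

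Hgf was barely detected in either group (chr5:16553495-16620152, plus strand). It had 3, 1 and 2 counts in LLC alone and 4, 9 and 9 counts in LLC with BMSCs, or 0.03, 0.01 and 0.02 FPKM against 0.03, 0.08 and 0.08 FPKM. The groups overlapped in FPKM (exact permutation test, two-sided p = 0.2), and the gene did not pass the filter on low counts. The summed counts of 6 and 22 gave 0.0477 and 0.166 CPM, a ratio of 3.48 with a 95% counting interval from 1.37 to 10.5 (exact Clopper-Pearson, counting error only). Fitted without a filter, its log2 fold change was 1.73, close to the log2 of the count ratio at 1.80 (adjusted p = 0.0338 by edgeR). At this depth Hgf was below 0.1 FPKM in 6 of 6 libraries, while the receptor Met was above 5 FPKM in each.

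Gas6, the vitamin K-dependent TAM ligand, showed the largest fold change of the 8 tested genes, at a low level (chr8:13465374-13494490, minus strand). It had 13, 9 and 10 counts in LLC alone and 50, 46 and 49 counts in LLC with BMSCs, or 0.11, 0.11 and 0.09 FPKM against 0.44, 0.41 and 0.44 FPKM. The groups were far apart and the libraries within each were close (0.103 ± 0.0115 and 0.430 ± 0.0173 FPKM, SD, n = 3 each; exact permutation test, two-sided p = 0.1). The summed counts of 32 and 145 gave a ratio of 4.30 with a 95% counting interval from 2.92 to 6.53 (exact Clopper-Pearson, counting error only). Its log2 fold change was 2.07 with a standard error of 0.19 (adjusted p = 6.56e-05 by edgeR), and it was 1.96 without LLC alone replicate 3 and 2.11 with the length trend removed. Exons of Gas6 overlap those of Tmem255b on the opposite strand, and whether reads were counted by strand was not given in the sources used here. Gas6 is strongly expressed by fibroblasts and macrophages, and the stromal and macrophage sums given above were higher in LLC with BMSCs too. Their part in the Gas6 counts was not tested. Its promoter window held 4 GC boxes, the most of the 8 genes whose promoters were examined. The 250 bases before the RefSeq start (chr8:13494536-13494785, minus strand, GRCm38.p6) are printed with the boxes in capitals, here read as CCGCCC. That start lies upstream of the GENCODE start of the gene given above.
Gas6 upstream: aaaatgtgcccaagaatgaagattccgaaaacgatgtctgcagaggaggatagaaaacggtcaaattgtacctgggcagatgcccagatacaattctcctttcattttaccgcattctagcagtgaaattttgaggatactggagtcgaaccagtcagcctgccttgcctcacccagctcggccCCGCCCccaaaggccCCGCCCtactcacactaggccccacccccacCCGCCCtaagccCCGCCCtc

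Axl was the most abundant of these genes in both groups, ranking 1462nd of 18182 genes by FPKM in LLC alone and 1179th in LLC with BMSCs (chr7:25757273-25788705, minus strand). Its level was 61.74, 61.47 and 56.10 FPKM in LLC alone, and 71.48, 67.42 and 66.06 in LLC with BMSCs. The groups did not overlap, with the highest LLC alone library at 61.74 FPKM and the lowest LLC with BMSCs library at 66.06 FPKM (59.8 ± 3.18 and 68.3 ± 2.82 FPKM, SD, n = 3 each; exact permutation test, two-sided p = 0.1). The log2 fold change was 0.17 with a standard error of 0.065 and a 95% interval from 0.02 to 0.32 (adjusted p = 0.0488 by edgeR). It lost the call in 11 of 17 alternatives, 2 of which turned its sign, and with the length trend removed it was -0.0056 (adjusted p = 0.907 by edgeR). A change of Axl was therefore not detectable apart from the length trend. The files divide Axl among 3 RefSeq transcripts. Of the gene's FPKM, NM_009465 held 50.2 ± 4.84% in LLC alone and 50.1 ± 2.40% in LLC with BMSCs, NM_001190975 held 38.5 ± 7.60% and 38.8 ± 1.21%, and NM_001190974 the rest (SD, n = 3 each).

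Between the members, Axl exceeded Gas6 by 581 ± 36.6 times in FPKM in LLC alone and by 159 ± 7.75 times in LLC with BMSCs. Met stood at 11.4 ± 1.90% of Axl in LLC alone and at 21.5 ± 0.302% in LLC with BMSCs (SD, n = 3 each; exact permutation test, two-sided, each p = 0.1). In order of FPKM, LLC alone had Axl, Pdgfc, then Met, Pdgfrb, Pdgfa and Pdgfra, whose neighbours overlapped, and then Gas6, Pdgfb and Hgf. In LLC with BMSCs the order was Axl, Pdgfc and Met, which overlapped, then Pdgfrb, Pdgfra, Pdgfa, Gas6, Pdgfb and Hgf without further overlap.

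**Figure D3:**
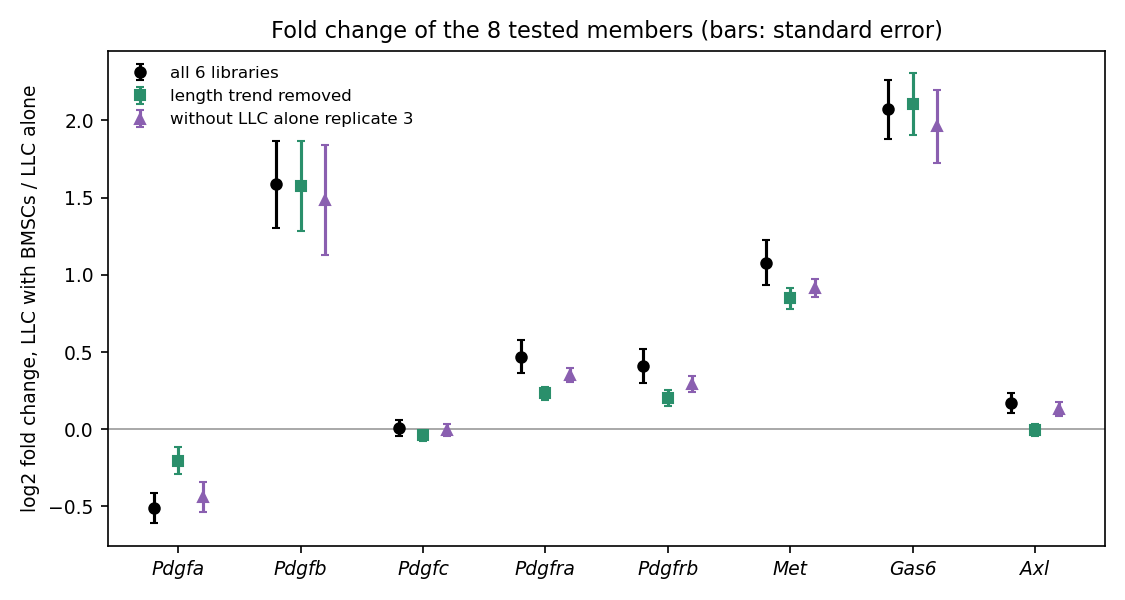
Log2 fold change of the 8 tested genes (LLC with BMSCs over LLC alone, bars for the standard error) with all 6 libraries, with the length trend of each library removed, and without LLC alone replicate 3. Gas6, Pdgfb and Met stay at 0.85 or above in each, Pdgfa moves from -0.51 to -0.20 and Axl from 0.17 to -0.0056 once the length trend is removed.

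**Figure D4:**
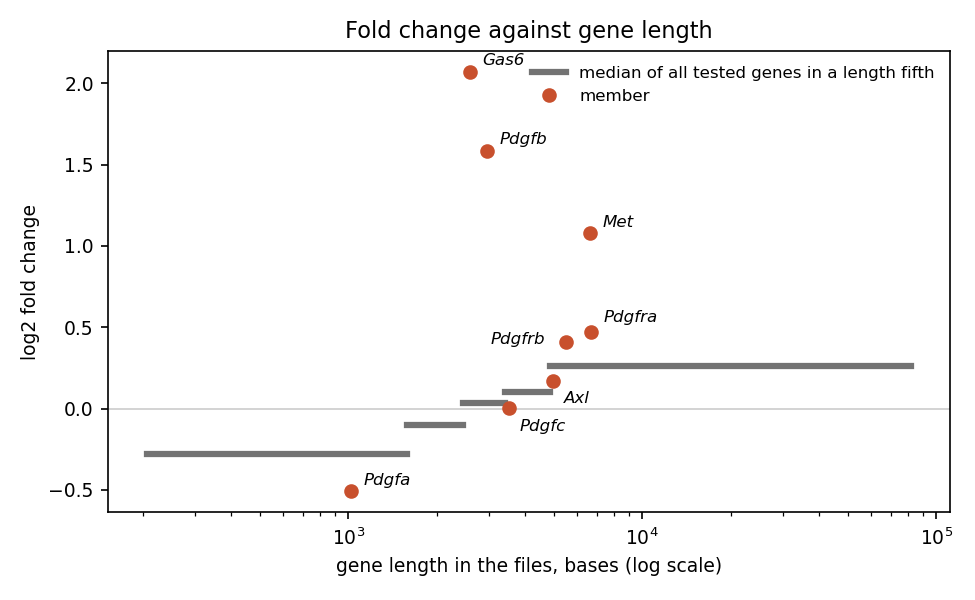
Log2 fold change against gene length (log axis) for the 8 tested genes (points), with grey lines for the median of all tested genes in each of 5 length classes. The class medians run from -0.28 to 0.26, Axl at 0.17 lies below the median of its class, and Met, Pdgfra and Pdgfrb lie above it by 0.82, 0.21 and 0.15.

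Over the promoters of 8 of the genes, 4 motifs were searched on both strands: the GC box GGGCGG, the TATA box TATAAA, the AP-1 motif TGANTCA and the STAT motif TTCNNNGAA. The promoters of Pdgfb and Pdgfrb were not examined. GC boxes were found in the windows of Met, Gas6, Axl (2) and Pdgfa, and not in those of Pdgfc, Pdgfra, Hgf and Pdgfd. The TATA box, in 13.6% of all windows, was found in Pdgfd alone. The STAT letters, in 8.30% of all windows, were in none of these windows. Genes that were called higher thus included windows with several GC boxes (Gas6 and Met, printed above) and without any (Pdgfra). A match is a description of the letters and not of a bound site.

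A wider list of 60 genes that act with these ligands and receptors was counted in the same fit. Of these, 58 had a row and 53 were tested, of which 25 were higher, 10 lower and 18 passed in neither direction, with a median log2 fold change of 0.16 against 0.01 over all tested genes. The shares over all genes were 31.5% higher and 31.3% lower. Of the tested genes of the list, 2 called ones (Spint2 and Grb10) reached the count minimum in 1 group only. With the length trend removed, 24 were higher and 14 lower, beside 35.6% and 34.2% of all genes, and the median was 0.09. Genes named by rule are those called with a log2 fold change of 1 or more in size, and their calls and signs held in every alternative that tested them.

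In the HGF activation group, which holds the proteases that cut the precursor and their inhibitors, 6 of 10 genes were tested, 3 were higher and 1 lower. Plau, the urokinase that cuts plasminogen and can cut the HGF precursor, had 4.90, 4.78 and 4.63 FPKM in LLC alone against 27.30, 29.48 and 29.48 FPKM in LLC with BMSCs. Its rise was the largest of the list, at 2.57 on the log2 scale (SE 0.060, adjusted p = 1.02e-07 by edgeR). Spint2, which inhibits the HGF-activating proteases, had 0.71, 0.65 and 1 FPKM in LLC alone, and 0.12, 0.14 and 0.08 in LLC with BMSCs. Its log2 fold change was -2.84 (SE 0.31, adjusted p = 0.000153 by edgeR), from a level that was already at 1 FPKM or less. It reached the count minimum in 3 of 3 LLC alone libraries and 0 of 3 LLC with BMSCs libraries, and so was tested only through the group where it was high. Furin, which cuts precursors of growth factors and receptors, including that of MET, had a log2 fold change of 0.44 (19.3 ± 1.86 and 26.7 ± 0.705 FPKM, SD, n = 3 each). St14 and Hpn of this group were tested and not called, with log2 fold changes of 0.14 and -0.23. Hgfac and Spint1 were below the filter on low counts. Spint1 was at 0.03 FPKM on average in LLC alone and 0.107 in LLC with BMSCs, without overlap and opposite in direction to Spint2.

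Among other ligands and receptors of these families, 5 of 6 were tested, 2 were higher and 2 lower. Mst1, the HGF-like ligand of the MET relative RON, had 2.57, 2.78 and 2.77 FPKM in LLC alone against 0.57, 0.77 and 0.78 FPKM in LLC with BMSCs, which is a log2 fold change of -1.95 (SE 0.14, adjusted p = 2.03e-05 by edgeR). The TAM ligand Pros1 and the TAM receptor Mertk were both higher, each with a log2 fold change of 0.74, and the TAM receptor Tyro3 was lower at -0.30. Pros1 had 7.23 ± 0.205 FPKM in LLC alone and 12.2 ± 0.0833 in LLC with BMSCs, far above the levels of Gas6, while Mertk stayed below 2 FPKM. Of the co-receptors and carriers, 3 of 6 were higher and 1 lower. Lrp1, an endocytic receptor that works with PDGFR-beta, had 16.14, 17.14 and 7.88 FPKM in LLC alone, and 32.01, 26.88 and 26.82 in LLC with BMSCs, with a log2 fold change of 1.04 (SE 0.26, adjusted p = 0.00911 by edgeR) that was 0.77 without LLC alone replicate 3, 0.67 with the length trend removed and 0.59 at the lowest over the alternatives. Cd44 and Sdc1, which present HGF to MET, had log2 fold changes of 0.68 and 0.69, and Nrp1 had -0.54.

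Of 22 adaptors and effectors, 11 were higher and 4 lower. Grb10, an adaptor that binds activated receptors, was named by the rule at 1.67 but lay at 0.02 and 0.07 FPKM on average, and reached the count minimum in 0 of 3 LLC alone libraries. The others were under 1 in size, among them Sos1 at 0.67 and Grb2 at 0.63, which link receptors to RAS and were at 0.35 and 0.65 with the length trend removed, and Gab1, the docking protein of MET, at -0.66 (52.2 ± 5.34 and 33.5 ± 0.769 FPKM, SD, n = 3 each). Of 16 genes that attenuate the receptors, 14 were tested, 6 were higher and 2 lower. Cblb, a ubiquitin ligase that marks receptors for breakdown, went from 3.84 ± 0.330 to 8.16 ± 0.231 FPKM (SD, n = 3 each). Its log2 fold change was 1.07 (SE 0.072, adjusted p = 1.31e-05 by edgeR). Ptprf, a receptor phosphatase, was at 1.44 from 0.0833 to 0.237 FPKM. Stam, which sorts marked receptors, and Spry2, a feedback inhibitor, fell by 0.93 and 0.63 on the log2 scale.

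**Figure D5:**
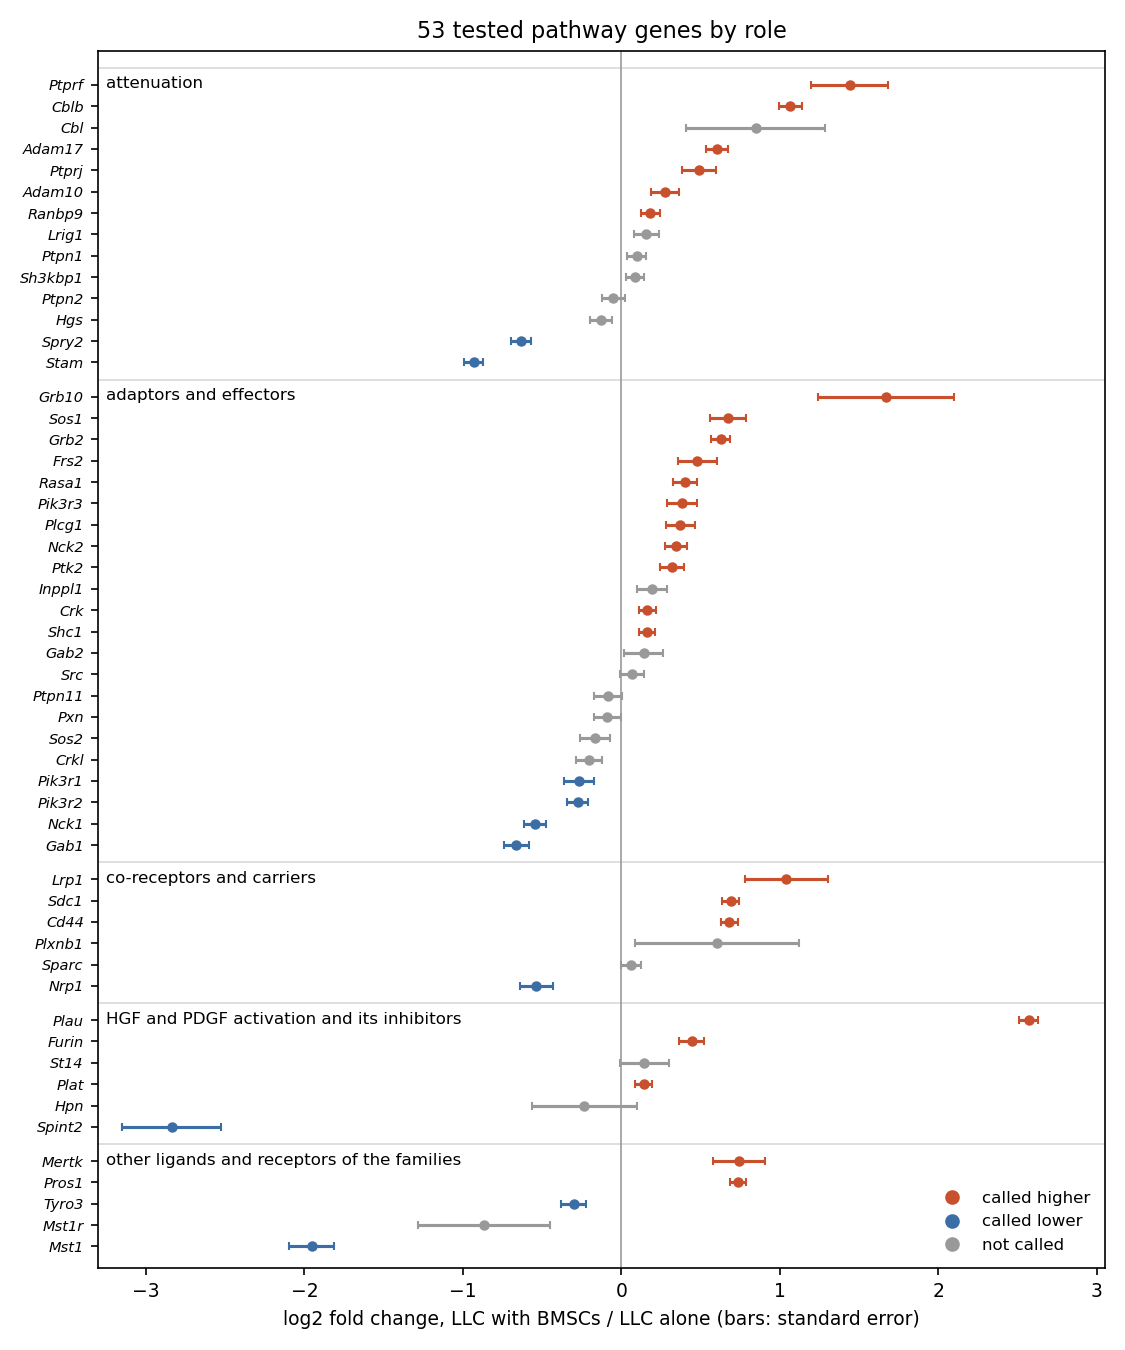
Log2 fold change of the 53 tested genes of the wider list, grouped by role, with bars for the standard error and colours for genes called higher (25), lower (10) or neither (18). Plau at 2.57 and Spint2 at -2.84 mark the ends of the range.

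For the called genes with the largest fold changes and at least 100 normalized counts, the tested genes whose pattern over the 6 libraries was nearest were named by Euclidean distance in mean-centred log2 CPM. For Met these were Nes, an intermediate filament gene, and Espl1, the separase gene, at distances of 0.0952 and 0.0985. Nes had 11.99, 12.74 and 8.51 FPKM in LLC alone against 25.12, 23.70 and 24.11 FPKM in LLC with BMSCs, and like Met was lowest in LLC alone replicate 3. For Pdgfa they were Fundc2 and Smad7, at 0.0686 and 0.0806, and for Pdgfra Chst11 and Nup205, at 0.0646 and 0.0713.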

How the data were processed

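RNA was measured in 6 libraries of sorted LLC cells, 3 per group, grouped as LLC alone or LLC with BMSCs by the sample labels. Poly(A) RNA was sequenced on a BGISEQ-500 as paired-end reads according to the study's methods, while the labels name Illumina protocols. The submitters' processing notes name HISAT, StringTie, Cufflinks, GATK and the build mm8, with no role given. The authors deposited estimated counts of fragments per gene, which are not normalized, together with a gene length in bases. The authors also deposited FPKM values per gene and per transcript, scaled by length and library total. The files give no coordinates, and positions here are those of GENCODE M21 (GRCm38). No column was left without a sample (0 unmapped).

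Estimated counts were rounded and tested with edgeR 4.0.16 (R 4.3.3, limma 3.58.1) by its quasi-likelihood test after TMM normalization and its default low-count filter, with Benjamini-Hochberg adjustment over all 13353 tested genes and a threshold of 0.05. Of these, 647 had no symbol. The biological coefficient of variation was 9.92%. FPKM values of single genes, shares and transcripts were compared with two-sided exact permutation tests. Tests were checked on simulated data: with a log2 change of 1 given to 200 of 13353 genes, 174 were recovered with 9 false calls among 183, and with a change of 0.3, 0 of 200. In the data 31.5% of genes were called higher and 31.3% lower. The adjusted threshold was therefore stricter in the simulation, and its recovery does not carry over to the data. The members, the wider list and the markers were chosen with earlier results of these data known. Named genes were all 10 members, genes of the wider list called with a log2 fold change of 1 or more in size, and, for the 3 called members of largest fold change with at least 100 normalized counts, the 2 nearest genes in pattern; other genes named were chosen after their values were seen. Of the 10 members, 8 were examined in promoter windows of RefSeq (GRCm38.p6) matched by symbol, from 250 bases before to 50 bases after a start. Windows on chromosome 18, where Pdgfrb lies, were left out.

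Alternatives were DESeq2 1.42.0, scaling by library size alone or by upper quartiles, all genes with a count, a minimum of 10 counts per library, limma with a pseudocount of 1 or 0.1 on log2 FPKM for genes of 1 FPKM or more in 3 libraries, the length trend of each library removed as an offset, the replicate number as a block, close libraries summed, and each library left out in turn. Removal of length and GC trends together was added after the data were seen.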

Additional observations from a re-analysis of the deposited data

How the results depend on the processing

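Met and Pdgfra passed the threshold with a positive log2 fold change in 17 of 17 alternatives. With each library left out in turn, the log2 fold change was 0.92 to 1.17 for Met, 1.96 to 2.15 for Gas6, 1.47 to 1.80 for Pdgfb, 0.35 to 0.55 for Pdgfra and -0.55 to -0.44 for Pdgfa. Pdgfb passed the low-count filter only through LLC with BMSCs, and Gas6, over the minimum in 2 of 3 LLC alone libraries, also depended on that group. Pdgfa was no longer called once the length trend was removed, or length and GC trends together (adjusted p = 0.0679 and 0.0851 by edgeR), so the members called lower numbered 0 under each, in place of 1. Axl turned to -0.0056 with the length trend removed and to -0.0146 with length and GC trends removed. It kept its sign and lost the call with upper-quartile scaling, no filter, close libraries summed, the replicate block and 5 of the 6 left-out libraries.

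The replicate numbers did not pair the libraries, since deviations of same-numbered libraries correlated at 0.0762, -0.106 and 0.0572 and 2 of 6 libraries correlated best with their own number. With the replicate block, 4161 genes were higher and 4058 lower, in place of 4210 and 4183, and Met had a log2 fold change of 1.10 and Axl 0.17 (adjusted p = 0.0631 by edgeR). The counts of the wider list stayed within 1.5 times their values in every alternative. Pdgfb, Hgf and Gas6 had at most 50 counts in a library, and their counting intervals stand beside their values. On simulated data over all tested genes, 0 of 200 changes of 0.3 on the log2 scale were recovered. Only those 200 genes were changed there, so the adjusted threshold was stricter than in the data. The recovery therefore does not carry over to the data.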
